A study of Mus musculus with 3 samples.

Results

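S100a4, S100a6, S100a10, S100a11, Anxa2, Lgals1, Lgals3, Lgals9, Vim and Crip1 were described together as S100, annexin and galectin genes, with a filament gene and a LIM domain gene, across early thymocytes. The 10 genes were chosen by name, with earlier results of these data known. All 10 were listed in each of 3 single-cell RNA libraries, among 28692, 28692 and 32285 genes in the first, second and the third runs. Each library was made from the pooled thymi of 4 C57BL/6 mice at 6 weeks of age, and the labels name no transgene or treatment. CD4+ and CD8+ cells were depleted with beads, and cells stained for B220, CD11b, CD11c, NK1.1 or TCRβ were gated out. The first run held total CD4-CD8- double negative (DN) and TCRγδ+ thymocytes, the second was limited to the DN1 and DN2 stages with TCRγδ+ cells excluded, and the third combined separately sorted DN1 plus DN2, DN3 and TCRγδ+ fractions. No sort was repeated, so a run and its sort cannot be told apart. The paper names V2 or V3.1 kits and NextSeq or NovaSeq sequencing without saying which run had which. Any such difference cannot be told apart from the run either.

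Thymocytes pass from DN1 through DN2 and DN3 to DN4 while they commit to the T lineage and rearrange their receptor genes, and γδ cells branch off on the way. S100 proteins are small calcium-binding proteins, annexins bind membrane phospholipids in the presence of calcium, and galectins bind β-galactoside sugars on glycoproteins. In peripheral lymphocytes S100a4, S100a6, Lgals1, Lgals3, Anxa2, Vim and Crip1 are known as genes of activated, memory and tissue-homing cells.

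Limits of 500 to 5000 detected genes and 7% mitochondrial UMIs left 5516, 8852 and 7511 cells. They held a median of 5989.5, 4844 and 8507 UMIs (unique molecular identifiers, each counting 1 captured transcript). Cells were assigned to gates by the UMIs of marker transcripts, and none of the 10 genes was used in a gate. The ETP-like gate (Kit with Cd34 or Flt3) held 33 and 38 cells in the second and the third runs, and the DN2-like gate (Il2ra with Kit or Cpa3) held 399, 1864 and 993 cells in the 3 runs. The DN3-like gate (Ptcra with Il2ra) held 659, 578 and 796 cells, although DN3 cells were not sorted for the second run. In that run the paper used Ptcra among the genes that separated later DN2 cells (DN2b) from earlier ones (DN2a). Whether the second run's cells of this gate were DN2b or DN3 cells was not tested. Cells with at least 4 Trdc UMIs and none of Ptcra, Rag1 or Il2ra were divided into the Trdc gate, with 490, 740 and 625 cells, and the Trdc Il2rb gate, with 30, 98 and 197 cells. The second run held such Trdc cells although TCRγδ+ cells had been gated out. The Trac Il2rb gate, with the T cell receptor α constant transcript and the shared IL-2 and IL-15 receptor subunit, held 1121 and 725 cells in the second and the third runs, and the Trac gate without Il2rb held 687 and 167.

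The Il17re gate (at least 1 UMI of the IL-17 receptor E transcript) held 73, 615 and 506 cells. In the first run 61 of the 73 cells also held Ptcra, Rag1 or Il2ra, and the summed level of 7 type 17 markers was 105 CPM (UMI counts scaled to the same total in every gate), against 735 and 973 CPM in the other runs. The Il17re gate of the first run therefore went against a type 17 label, and the tests of this gate are given with and without that run. In the Trdc gate the same 7 markers summed to 171, 485 and 999 CPM, as some of them, such as Sox13 and Blk, mark immature γδ cells as well. All 7 markers of type 1 or NK cells reached at least 50 CPM in the Trac Il2rb gate, where they summed to 5376 and 3370 CPM, against 274 and 196 CPM in DN3-like cells. Between the first and second runs 72 cell barcodes were shared, between the first and the third 3, and between the second and the third 0.

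In GRCm38, 4 of the genes lie on chromosome 3. S100a4 lies at chr3:90603771-90606045 and S100a6 at chr3:90612882-90624181 on the same strand, 6836 bases apart, and S100a11 at chr3:93520488-93526287 lies beside S100a10 at chr3:93555080-93564643. Promoter windows from 250 bases before to 50 bases after the start were taken from RefSeq (GRCm38.p6), which gave 8 of the 10 genes. The windows of 4 genes are shown because, in the second and the third runs, S100a4 and S100a6 were highest in the Il17re or Trac gates while Lgals9 and Crip1 were highest in DN2-like cells. Each is written 5′ to 3′ on its own strand, and capitals mark matches on either strand to TATAAA (the TATA box), GGGCGG (the GC box), TGANTCA (AP-1), AGGTCA (a ROR core) or GTGTGA (a T-box core). The coordinates are chr3:90603520-90603819 for S100a4, chr3:90612644-90612943 for S100a6, chr11:78984875-78985174 on the minus strand for Lgals9 and chr12:113151762-113152061 for Crip1.
S100a4: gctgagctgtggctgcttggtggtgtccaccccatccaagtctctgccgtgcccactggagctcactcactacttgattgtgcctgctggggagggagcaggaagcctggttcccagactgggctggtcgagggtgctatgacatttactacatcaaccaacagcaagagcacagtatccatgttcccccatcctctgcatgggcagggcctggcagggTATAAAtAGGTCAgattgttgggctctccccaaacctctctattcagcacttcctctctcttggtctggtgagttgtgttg
S100a6: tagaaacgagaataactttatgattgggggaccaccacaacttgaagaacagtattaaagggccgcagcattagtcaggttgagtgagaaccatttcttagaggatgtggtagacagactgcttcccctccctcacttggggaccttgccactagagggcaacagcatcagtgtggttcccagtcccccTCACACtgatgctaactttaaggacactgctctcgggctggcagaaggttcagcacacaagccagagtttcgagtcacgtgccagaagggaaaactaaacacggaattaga
Lgals9: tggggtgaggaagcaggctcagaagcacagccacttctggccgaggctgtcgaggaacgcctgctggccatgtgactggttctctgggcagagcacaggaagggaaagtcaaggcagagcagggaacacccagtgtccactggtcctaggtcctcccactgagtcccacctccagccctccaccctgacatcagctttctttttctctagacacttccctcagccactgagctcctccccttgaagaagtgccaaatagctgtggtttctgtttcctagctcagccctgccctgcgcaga
Crip1: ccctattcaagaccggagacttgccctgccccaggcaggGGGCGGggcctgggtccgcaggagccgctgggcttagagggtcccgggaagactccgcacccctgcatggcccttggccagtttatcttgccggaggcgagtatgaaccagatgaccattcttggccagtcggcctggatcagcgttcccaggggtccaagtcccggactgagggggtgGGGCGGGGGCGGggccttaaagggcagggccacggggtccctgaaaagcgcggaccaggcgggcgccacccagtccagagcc

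The S100a4 window held 1 TATAAA followed by 1 AGGTCA, and the S100a6 window held 1 match to GTGTGA. The Crip1 window held 3 matches to GGGCGG, and the Lgals9 window matched none of the 5 motifs. Of 32851 promoter windows of this length, 13.6% held TATAAA, 35.7% GGGCGG, 7.81% TGANTCA, 16.3% AGGTCA and 14.5% GTGTGA. The matches describe these letters in these windows, and the relation of a motif to a gene's pattern was not tested. TATAAA also stood in the windows of Anxa2 and Vim, and GGGCGG in those of S100a11, Anxa2 and Lgals3, so both stood in genes of different patterns. TGANTCA stood in the windows of S100a11 and Anxa2, AGGTCA also in that of S100a11, and GTGTGA in no other of the 8 windows.

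The 10 genes did not share 1 pattern. S100a4, S100a6, S100a10, S100a11, Lgals3 and Vim were lowest in DN3-like or DN4-like cells, apart from Lgals3, which was lowest in the Il17re gate of the first run, at 0 UMIs, and in the DN2-like gate of the third run. In the second and the third runs these genes were highest in the Trac, Trac Il2rb, Il17re or, for Vim in the third run, Trdc Il2rb gate. Lgals1, Lgals9 and Crip1 were highest in DN2-like cells in each of the 3 runs, and Lgals9 and Crip1 were lowest in the Trac or Trac Il2rb gate of the second and the third runs. Anxa2 was highest in the DN4-like gate of the first run and the Trdc Il2rb gate of the others. Thus 6 of the 10 genes were highest in Trac, Il17re or Trdc Il2rb gates in the second and the third runs, and effector state was not measured. Of these, Vim was also 360 and 384 CPM in ETP-like cells, against 385 and 439 CPM in the Il17re gate.

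**Figure D1:**
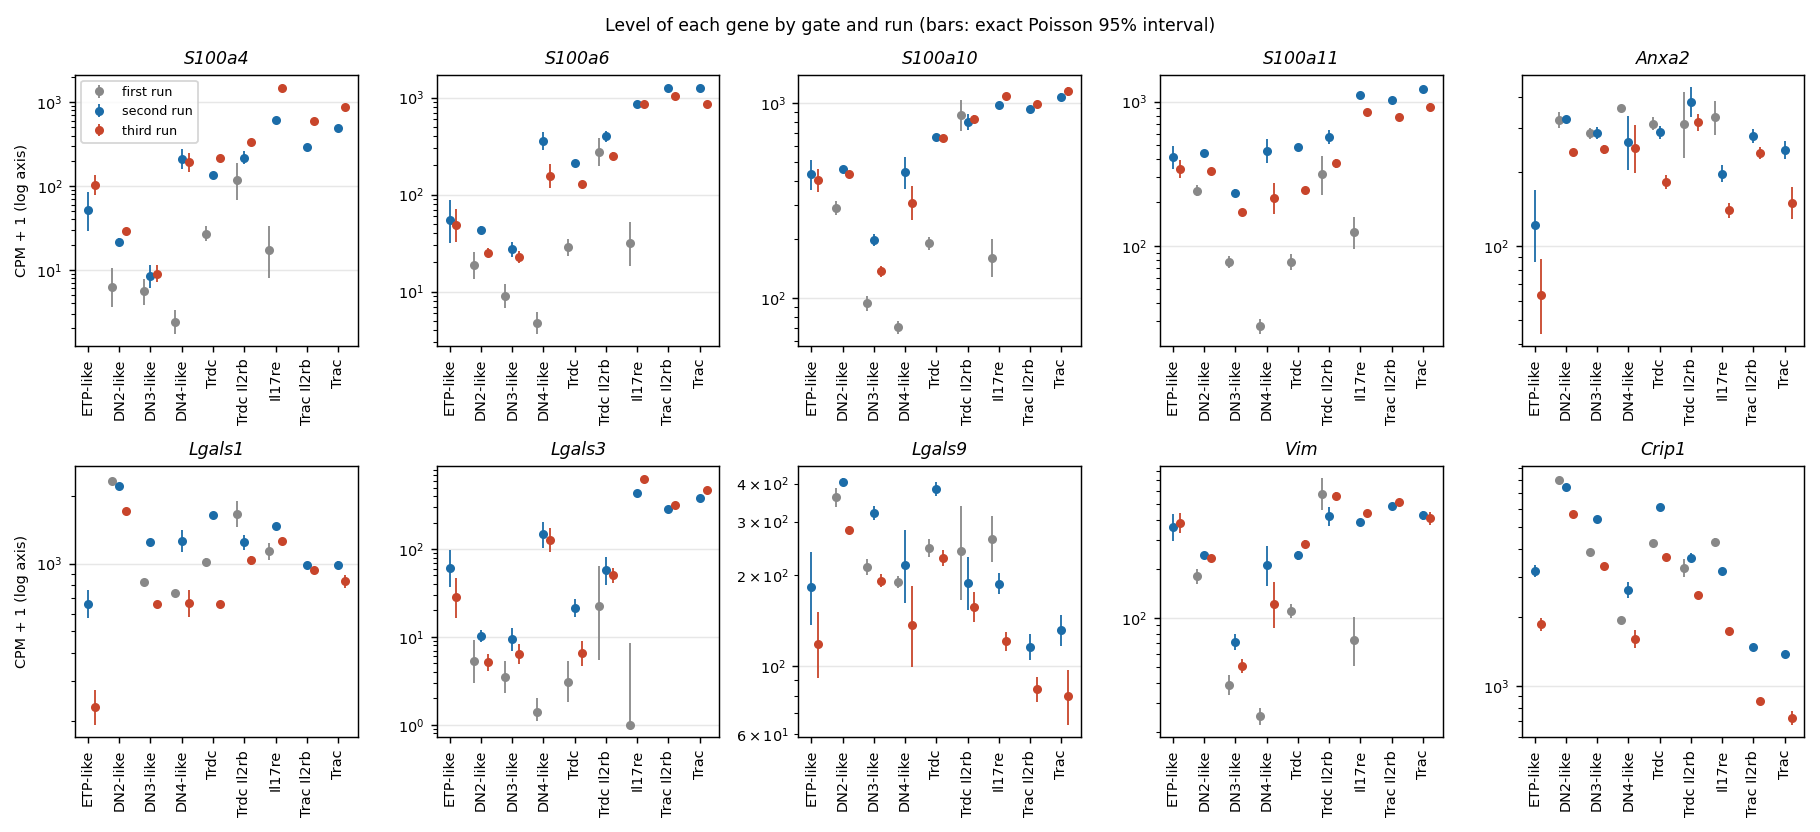
Level of each of the 10 genes (y axis, CPM + 1 on a log axis) in 9 gates (x axis) in the first (gray), the second (blue) and the third (red) run, with exact Poisson 95% intervals. Gates with under 20 cells are not drawn. In the second and the third runs S100a4, S100a6 and Lgals3 are lowest in the DN2-like or DN3-like gate and highest in the Il17re or Trac Il2rb gate. Lgals9 and Crip1 are lower in Trac than in DN2-like cells.

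S100a4, a calcium-binding protein that binds non-muscle myosin and is known for its part in cell motility, spanned a wide range. In DN3-like cells its level was 4.54, 7.49 and 8.04 CPM in the first, second and the third runs, and in DN2-like cells 5.27, 20.5 and 27.8 CPM. In the Trdc gate it was 26.0, 135 and 217 CPM, and in the Trdc Il2rb gate 116, 218 and 338 CPM. The Trdc gates thus lay above the DN2-like and DN3-like gates in every run. In the Trac Il2rb gate it was 292 (exact Poisson 95% interval 274 to 310) and 603 (581 to 625) CPM in the second and the third runs, and in the Il17re gate 611 (584 to 638) and 1489 CPM. The third run was higher than the second in each of these gates, and the intervals, which cover counting error only, did not overlap between the runs. In the first run the Il17re gate held 16.4 CPM (7.08 to 32.3), which overlapped with that run's Trdc gate.

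S100a6, also called calcyclin, followed S100a4 with a different order of the high gates. It was 8.05, 26.2 and 21.7 CPM in DN3-like cells and 27.5, 211 and 128 CPM in the Trdc gate. It was highest in the Trac Il2rb gate, at 1250 and 1044 CPM in the second and the third runs, and reached 849 and 855 CPM in the Il17re gate. S100a6 thus was higher in the Trac Il2rb gate than in the Il17re gate in both runs, whereas S100a4 was lower there in both. The Il17re gate also held cells with Ptcra, Rag1 or Il2ra (176 of 615 and 186 of 506), which the Trac Il2rb gate excludes. This order is therefore between gates of unlike make-up, and the parts of the Il17re gate are given below. In the Trac gate without Il2rb, S100a6 was 1240 and 855 CPM, so that the Trac gates did not differ beyond counting error in the second run and did in the third.

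S100a10, the small subunit that pairs with annexin A2 at membranes, and S100a11, which binds annexin A1, were detected at every stage. S100a10 was 92.7, 198 and 136 CPM in DN3-like cells and 288, 460 and 434 CPM in DN2-like cells. In the Trdc gate it was 190, 668 and 661 CPM, and in the Trdc Il2rb gate 870, 805 and 831 CPM. Among the gates held by all 3 runs, this was the one in which the runs lay closest. In the Il17re gate it was 160, 974 and 1091 CPM, and in the Trac Il2rb gate 939 and 989 CPM. S100a11 was 76.6, 233 and 171 CPM in DN3-like cells and 240, 439 and 327 CPM in DN2-like cells. It was 1113 and 843 CPM in the Il17re gate and 1018 and 779 CPM in the Trac Il2rb gate of the second and the third runs, and was 123 CPM in the Il17re gate of the first.

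Anxa2, a membrane-bound annexin that links vesicles to the cytoskeleton, did not follow its partner S100a10. Its level was 322, 326 and 239 CPM in DN2-like cells and 284, 285 and 245 CPM in DN3-like cells. It was 278 and 236 CPM in the Trac Il2rb gate, which overlapped with DN3-like cells within counting error in both runs. In the Il17re gate it was 330, 195 and 138 CPM, and its lowest levels were those of ETP-like cells, 121 and 62.4 CPM.

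Among the galectins, Lgals3, which is secreted and cross-links surface glycoproteins, ranged widely between gates in the second and the third runs. It was 2.48, 8.43 and 5.36 CPM in DN3-like cells and 4.31, 9.23 and 4.15 CPM in DN2-like cells, and 2.07, 20.4 and 5.48 CPM in the Trdc gate. In ETP-like cells it was 60.5 and 27.5 CPM, and in the Trdc Il2rb gate 21.7, 56.3 and 49.1 CPM. It reached 427 (405 to 450) and 618 (597 to 639) CPM in the Il17re gate of the second and the third runs and 288 and 315 CPM in the Trac Il2rb gate. The Il17re and Trac Il2rb gates lay above the DN2-like, DN3-like and Trdc gates of these runs by far more than the counting intervals. In the Il17re gate of the first run 0 UMIs were counted, which allows a level of up to 7.56 CPM by the exact Poisson interval.

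Lgals1, a small galectin known for effects on T cell survival, and Lgals9, a ligand of the inhibitory receptor TIM-3, peaked in DN2-like cells. Lgals1 was 2331, 2212 and 1705 CPM there and 831, 1243 and 659 CPM in DN3-like cells. In the Il17re gate it was 1133, 1470 and 1262 CPM, and in ETP-like cells 662 and 229 CPM. Lgals9 was 360, 405 and 280 CPM in DN2-like cells, 244, 384 and 227 CPM in the Trdc gate and 212, 318 and 191 CPM in DN3-like cells. In the Trac Il2rb gate it was 115 (104 to 127) and 83.0 (75.1 to 91.5) CPM, below the DN3-like gate in both runs.

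Vim encodes vimentin, the intermediate filament of mesenchymal cells and leukocytes. It was 38.0, 70.0 and 49.8 CPM in DN3-like cells, against 179, 244 and 232 CPM in DN2-like cells and 360 and 384 CPM in ETP-like cells. Vim was thus lower in each later gate of this order in both runs with ETP-like cells. It was 580, 420 and 561 CPM in the Trdc Il2rb gate and 483 and 512 CPM in the Trac Il2rb gate. Crip1, a small LIM domain protein, was also lower in DN3-like than in DN2-like cells but, unlike Vim, low in the Trac gates. It was 8034, 7489 and 5685 CPM in DN2-like cells, 3851, 5383 and 3364 CPM in DN3-like cells and 4231, 6100 and 3668 CPM in the Trdc gate. In ETP-like cells it was 3197 and 1862 CPM, below DN2-like cells in both runs. In the Trac Il2rb gate it was 1476 and 861 CPM, and in the Trac gate 1375 and 723 CPM, in the second and the third runs.

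The runs also differed in their DN4-like cells (Cd4, Cd8a or Cd8b1 transcripts without Il2ra or Il2rb). With 1038 cells in the first run, S100a4 was 1.36 CPM, S100a6 3.78 CPM and Lgals3 0.388 CPM, the lowest or close to the lowest of any gate. With 33 and 25 cells in the second and the third runs, for which DN4 cells had not been sorted, S100a4 was 210 and 190 CPM and Lgals3 145 and 127 CPM. The type 17 markers of these cells summed to 263 and 320 CPM, against 49.5 CPM in the DN4-like cells of the first run. The type 1 or NK markers summed to 424 and 181 CPM, against 17.8 CPM, and the part of both marker lists in the levels was not tested.

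The share of cells with a UMI followed the levels after each cell was thinned to 2000 UMIs. S100a4 was found in 55.1% (exact Clopper-Pearson 95% interval 51.1 to 59.1) of 615 Il17re cells in the second run and 61.5% (57.1 to 65.7) of 506 in the third. In DN3-like cells, the lowest gate for S100a4 in both runs, the shares were 1.56% (0.714 to 2.94) and 1.01% (0.435 to 1.97). How much of these shares free RNA gave was not tested. Without thinning the shares were 65.4% and 72.3% of Il17re cells, at median depths of 4201 and 9861.5 UMIs, and 3.98% and 5.15% of DN3-like cells, at 6529.5 and 7729.5 UMIs. S100a6 was found in 71.5% and 63.9% of Trac Il2rb cells and in 4.84% and 2.89% of DN3-like cells. Lgals3 was found in 35.6% and 40.3% of Il17re cells and in 1.04% and 0.377% of DN3-like cells. At this depth more Il17re cells lacked a Lgals3 UMI than held one. Crip1 was found in at least 74.9% of the cells of each of these gates.

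The 6 genes that were high in the Trac and Il17re gates were also counted together in each thinned cell, a set chosen after their levels were seen and given with no test. In the second and the third runs 73.2% and 68.6% of Il17re cells and 78.6% and 70.8% of Trac Il2rb cells held at least 3 of the 6. The Il17re share was an average over unlike cells, which are split below. In DN3-like cells the shares were 4.15% and 2.14%, in DN2-like cells 17.4% and 13.6% and in the Trdc gate 28.0% and 25.7%. The Trdc Il2rb gate lay between, at 42.9% and 46.4%. In the first run 5.48% of Il17re cells and 36.7% of Trdc Il2rb cells held at least 3.

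**Figure D2:**
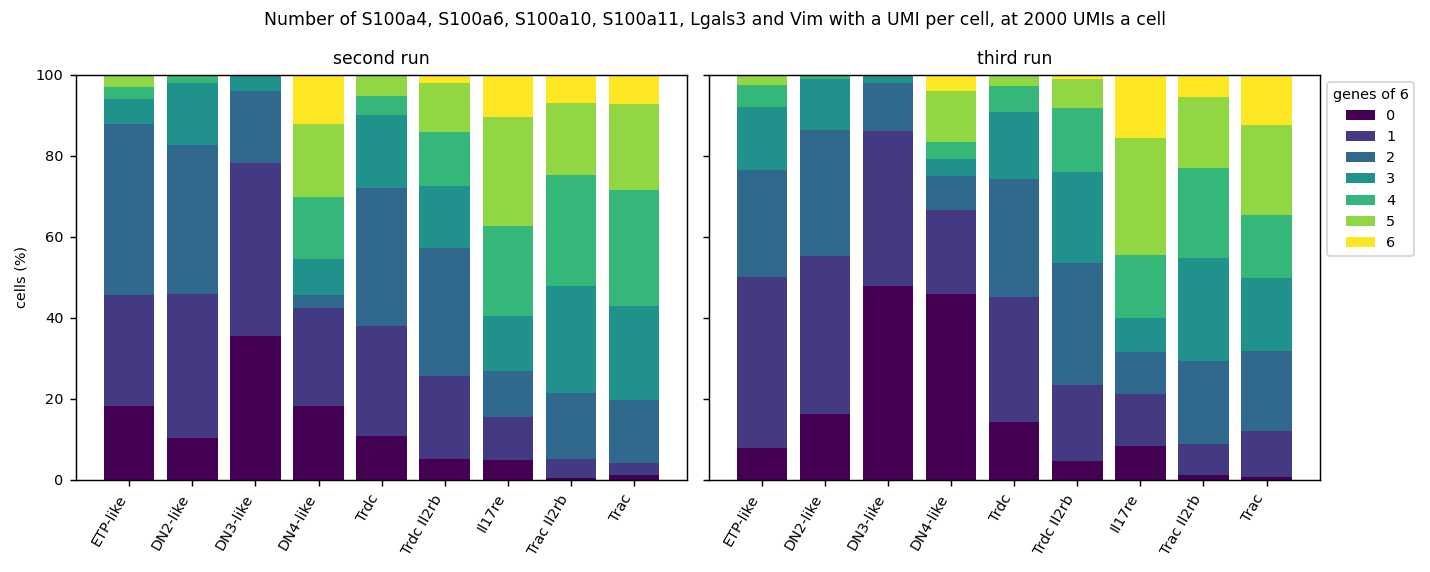
Percent of cells (y axis) that held a UMI of 0 to 6 of S100a4, S100a6, S100a10, S100a11, Lgals3 and Vim (colors) in each gate (x axis) of the second and the third runs, each cell thinned to 2000 UMIs. At least 3 of the 6 were found in 73.2% and 68.6% of Il17re cells and in 4.15% and 2.14% of DN3-like cells.

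Il17re-positive cells were not uniform. Those without Ptcra, Rag1 and Il2ra were split by UMIs. Cells with Trdc (101 and 79 in the second and the third runs) held at least 4 Trdc UMIs. Of the rest, cells with Trac (232 and 148) held at least 2 Trac UMIs. Cells with neither (106 and 93) lay below both thresholds and could still hold fewer UMIs of either. Those with Ptcra, Rag1 or Il2ra (176 and 186) were kept apart. Lgals3 was 77.8 and 144 CPM in the cells with Trdc, against 781 and 937 CPM in those with Trac and 753 and 1018 CPM in those with neither. Crip1 showed the reverse, at 3887 and 2250 CPM with Trdc and 766 and 591 CPM with Trac. The counting intervals of the cells with Trdc and with Trac did not overlap for either gene in either run. Lgals9 was 215 and 186 CPM with Trdc and 102 and 56.3 CPM with Trac. S100a4 was 719 and 588 CPM with Trdc and 862 and 2005 CPM with Trac, so that the difference was much larger in the third run. S100a6 did not keep its order, with 1280 and 578 CPM with Trdc and 1058 and 1048 CPM with Trac. The cells with Ptcra, Rag1 or Il2ra held 270 and 1125 CPM of S100a4 and 5425 and 2895 CPM of Crip1. At least 3 of the 6 genes counted together above were held by 56.4% and 30.4% of the cells with Trdc. The shares were 92.2% and 97.3% with Trac, 89.6% and 88.2% with neither, and 47.7% and 52.2% with Ptcra, Rag1 or Il2ra. The split was not tested.

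**Figure D3:**
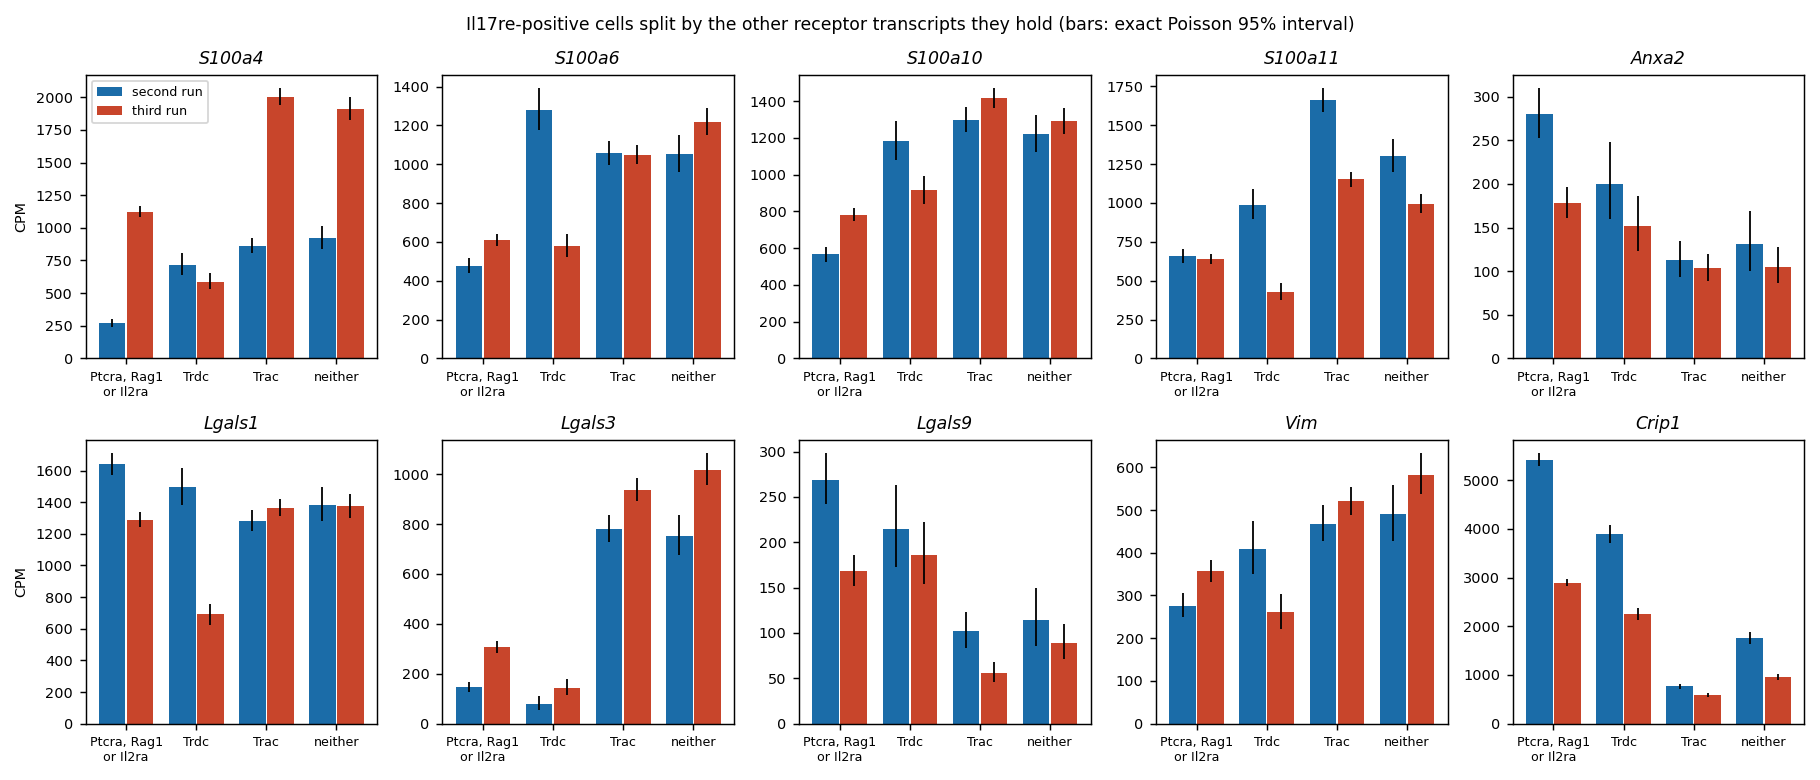
Level of each gene (y axis, CPM) in Il17re-positive cells with Ptcra, Rag1 or Il2ra, and in the other Il17re-positive cells with Trdc, with Trac or with neither (x axis), in the second (blue) and the third (red) runs, with exact Poisson 95% intervals. Lgals3 is higher with Trac than with Trdc, at 781 against 77.8 CPM and 937 against 144 CPM, and Crip1 and Lgals9 are lower.

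The 3 comparisons were tested by edgeR's quasi-likelihood method on counts summed per gate and run, with the run as a block, and p-values were adjusted across every gene in the fit by Benjamini-Hochberg. The runs served as replicates although they differ in sort, so p-values cover no spread beyond these libraries. The fits had 2, 1 and 1 residual degrees of freedom and so leaned on the spread of all genes. This prior counted for 6.94 and 6.29 degrees of freedom in the first 2 fits, and the third is described below. The comparisons share no gate.

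The first comparison asked whether Il17re-positive cells differ from Trdc cells without Il17re or Il2rb, over the 3 runs. The 2 gates also differ in receptor transcripts and stage. Of 615 and 506 Il17re cells in the second and the third runs, 101 and 79 belonged to the part with Trdc. A further 176 and 186 held Ptcra, Rag1 or Il2ra, which the Trdc gate excludes. The fit cannot separate Il17re from these differences. S100a4, S100a6, S100a11 and Lgals3 were higher. The log2 difference was 2.12 (SE 0.42, adjusted p = 0.0251) for S100a4, 2.09 (SE 0.34, adjusted p = 0.0122) for S100a6, 1.37 (SE 0.20, adjusted p = 0.00659) for S100a11 and 5.32 (SE 0.62, adjusted p = 0.00232) for Lgals3. Of 9763 genes tested, 2.84% were called higher and 1.34% lower, against 4 and 0 of the 10 genes. As the 10 were chosen with earlier results of these data known, counts of members called, here and below, are descriptions. The median log2 difference was 0.46 over the 10 genes and 0.00 over all genes. S100a10 (0.47), Vim (0.45) and Lgals1 (0.38) and, below 0, Crip1 (-0.60), Lgals9 (-0.58) and Anxa2 (-0.23) did not pass.

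These calls depended on single runs and on the test. With DESeq2 only S100a11 of the 10 was called (adjusted p = 8.72e-06), among 202 genes called in all. By DESeq2 S100a4 differed by 1.61 (adjusted p = 0.740), S100a6 by 1.75 (adjusted p = 0.290) and Lgals3 by 3.95 (adjusted p = 0.506). With no run block edgeR called none of the 10, and 0 of all 9763 genes. Without the first run, whose Il17re gate went against its label, all 10 genes were called, 7 higher and 3 lower, with 1083 genes called higher and 810 lower in all. Then S100a4 differed by 2.55, S100a6 by 2.44, S100a11 by 1.56 and Lgals3 by 5.51. S100a10 differed by 0.70, Vim by 0.71 and Lgals1 by 0.45, and below 0 lay Crip1 (-0.94), Lgals9 (-0.92) and Anxa2 (-0.41). Without the third run none of the 10 was called, with 16 of 9694 genes called in all, and S100a4 differed by 1.48 (adjusted p = 0.691). With the Il17re gate limited to cells without Ptcra, Rag1 and Il2ra, an alternative chosen after seeing the data that kept the second and the third runs, 9 of the 10 were called, 6 higher and 3 lower. That fit called 977 of 10157 genes higher and 885 lower. Within the first run alone S100a4 differed by -0.66 (exact 95% counting interval -1.92 to 0.38), and in the second and the third by 2.17 (2.03 to 2.32) and 2.78 (2.69 to 2.87). Of 5 myeloid markers, which mark cells that also hold these transcripts, 3 and 4 were detected, and they summed to 15.3 and 10.5 CPM in the Il17re gate and 19.6 and 5.48 CPM in the Trdc gate of the second and the third runs, with C1qa at 0 and 0.177 CPM in the Il17re gate. Cells with at least 2 myeloid markers had been set aside before gating, which lowers these values in advance. The cycling markers Mki67 and Top2a summed to 149 and 360 CPM in the Il17re gate and 258 and 484 CPM in the Trdc gate of these runs, and their part in the differences was not tested.

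The second comparison set Trac Il2rb cells against DN3-like cells over the second and the third runs, since the first held 2 Trac Il2rb cells. The 6 genes S100a4, S100a6, S100a10, S100a11, Lgals3 and Vim were higher and Crip1 and Lgals9 lower. S100a4 differed by 6.05 (SE 0.23, adjusted p = 3.72e-06), S100a6 by 5.80 (SE 0.16, adjusted p = 2.49e-06) and Lgals3 by 5.73 (SE 0.20, adjusted p = 2.99e-06). The differences were 3.30 for Vim, 2.78 for S100a10 and 2.38 for S100a11, with adjusted p from 8.11e-06 to 1.77e-05. Crip1 fell by 1.69 on the log2 scale (SE 0.14, adjusted p = 9.83e-05) and Lgals9 by 1.11 (SE 0.13, adjusted p = 0.00039), both in 2 of 2 runs. Anxa2 (0.18) and Lgals1 (0.31) did not pass. With no run block edgeR called 6 of the 10, all higher, and no longer Crip1 (adjusted p = 0.110) or Lgals9 (adjusted p = 0.213). That fit called 815 of 10432 genes, 510 higher and 305 lower. These gates differed widely, with 23.1% of 10432 genes called higher and 25.2% lower, so that 8 of 10 called stands against 5039 of all genes. Myeloid markers summed to 3.73 and 2.46 CPM in the Trac Il2rb gate, with Csf1r and C1qa at 0 in both runs, and to 33.2 and 20.7 CPM in DN3-like cells. The 4 plasmacytoid dendritic markers summed to 62.2 and 54.7 CPM against 7.02 and 6.13 CPM. Pacsin1 gave 61.7 and 54.7 CPM of this in the Trac Il2rb gate and Cox6a2 6.32 and 5.23 CPM in DN3-like cells, with the defining marker Siglech at 0 in both gates. Cells with at least 2 myeloid or 2 plasmacytoid dendritic markers had been set aside before gating, which lowers these values in advance. The cycling markers Mki67 and Top2a summed to 22.7 and 172 CPM against 392 and 520 CPM, and their part in the differences was not tested.

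The third comparison set ETP-like against DN2-like cells over the second and the third runs. S100a4 (1.70, adjusted p = 1.38e-09), Lgals3 (2.69, adjusted p = 2.73e-07) and Vim (0.64, adjusted p = 0.000176) were higher in ETP-like cells by edgeR. Lgals1 (-2.31, adjusted p = 7.93e-46), Anxa2 (-1.70, adjusted p = 2.44e-18), Crip1 (-1.44, adjusted p = 2.58e-16) and Lgals9 (-1.23, adjusted p = 7.92e-12) were lower. S100a6 (0.68), S100a10 (-0.12) and S100a11 (-0.03) did not pass. Of 10899 genes, 4.27% were called higher and 6.01% lower, against 3 and 4 of the 10. The fit found no spread between genes' dispersions beyond their trend, so its errors for these 33 and 38 ETP-like cells rest on all genes together. With no run block edgeR called none of the 10, and 0 of all 10899 genes. Without the cells of the highest doublet scores Vim was not called by edgeR (0.43, adjusted p = 0.0552). Cells with at least 2 myeloid or 3 erythroid markers had been set aside before gating. In the cells that remained, myeloid markers summed to 57.2 and 62.4 CPM in ETP-like cells, nearly all of it Lyz2, and to 39.0 and 29.3 CPM in DN2-like cells. The erythroid markers summed to 588 and 34.9 CPM against 121 and 182 CPM. The single gene Hbb-bt gave 582 and 31.2 CPM of this in ETP-like cells and 113 and 178 CPM in DN2-like cells. The stress genes Fos, Jun, Hspa1a and Hspa1b summed to 2068 and 2438 CPM against 1725 and 969 CPM. The cycling markers Mki67 and Top2a summed to 97.5 and 373 CPM against 348 and 931 CPM. The part of these markers in the differences was not tested.

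**Figure D4:**
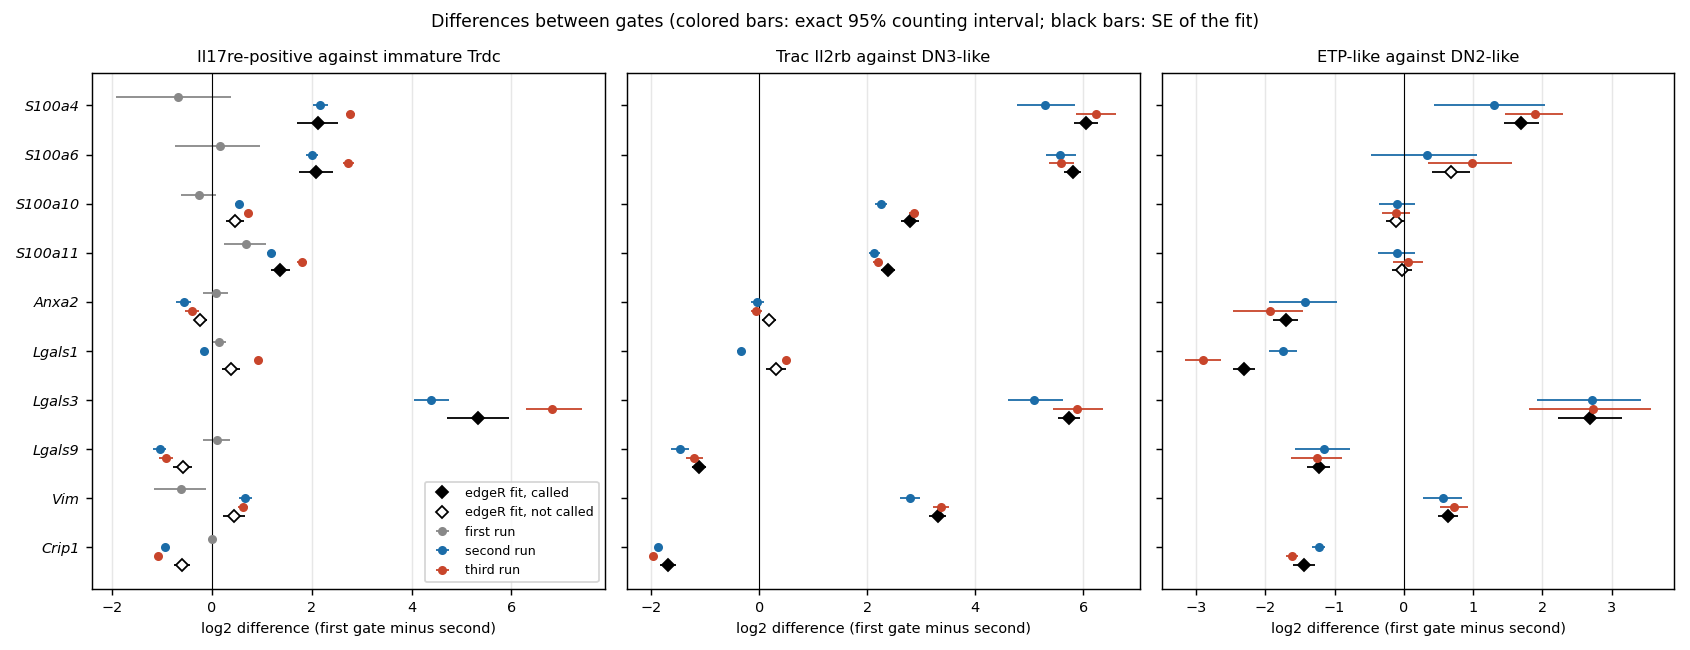
Log2 difference (x axis, first gate minus second) of each gene (y axis) in the 3 comparisons, per run with exact 95% counting intervals (gray, blue, red) and from the edgeR fit with its SE (black diamonds, filled where the adjusted p is under 0.05). The first run lies near or below 0 for S100a4, S100a10 and Vim in the left panel, and Lgals3 has no value there because its Il17re gate held 0 UMIs.

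The other S100, annexin, galectin and CRIP genes formed a list of 24. Of these, 12 were tested in the Il17re comparison (2 higher, 0 lower), 13 in the Trac Il2rb comparison (10 higher, 3 lower) and 13 in the ETP-like comparison (1 higher, 1 lower). Over all genes the shares called higher and lower were 2.84% and 1.34%, 23.1% and 25.2%, and 4.27% and 6.01% in the 3 comparisons. In the Il17re comparison the 2 calls fell to 0 without the third run, when 16 genes were called in all. They also fell to 0 with no run block, when no gene was called. Without the first run 5 of 13 were higher and 2 lower in the Il17re comparison, against 10.4% and 7.75% of all genes. In the Trac Il2rb comparison the called members with a log2 difference beyond 2 were Anxa1 (4.24), an annexin bound by S100a11, Lgalsl (2.45), Anxa6 (2.37), Anxa5 (2.13), Anxa4 (-2.07) and Crip2 (-2.55). Anxa1 was 1.87 and 1.28 CPM in DN3-like cells and 35.6 and 18.2 CPM in the Trac Il2rb gate. It was also higher in ETP-like than DN2-like cells, by 2.06. In the Trac Il2rb fit the annexins thus moved in both directions, and Crip2 fell with Crip1. With no run block edgeR called 2 of the 13 higher and 0 lower there, against 4.89% and 2.92% of all genes. Anxa4 (adjusted p = 0.0945), Crip2 (0.0981), Anxa5 (0.0585) and Lgalsl (0.0705) were then not called by edgeR. The falls of Anxa4 (-2.16) and Crip2 (-2.59) kept their direction and size in that fit but did not pass.

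A second list held 20 genes and, like the list of 24, was chosen with earlier results of these data known. It mixed membrane, cytoskeleton, adhesion and actin-binding genes with the costimulatory receptor gene Icos and regulators of transcription such as Id2, Zbtb16 and Rora. All 20 were tested in each comparison. In the Il17re comparison 6 were higher and 0 lower, in the Trac Il2rb comparison 18 higher and 1 lower, and in the ETP-like comparison 7 higher and 0 lower, beside the same shares of all genes. In the Il17re comparison these calls fell to 0 without the third run, when 16 genes were called in all, and to 0 with no run block, when none was. Without the first run 10 were higher and 2 lower, against 10.4% and 7.75% of all genes. Beyond a log2 difference of 2, Icos (3.93), Id2 (2.84), an inhibitor of E proteins, Zbtb16 (2.76), which encodes PLZF, Capg (2.74), an actin-capping protein, and Ahnak (2.39), a large scaffold that binds S100a10 and Anxa2, were higher in Il17re-positive cells. Without the first run these differences were 4.12, 3.09, 2.81, 3.27 and 2.45. The same 5 genes were higher in Trac Il2rb cells, by 5.60, 4.90, 5.63, 3.35 and 5.48. Fgl2 (5.82), Itgb7 (5.11), Tmsb10 (3.85), Rora (3.64), Lsp1 (3.06) and Tmsb4x (2.96) were higher there too, and the integrin gene Itga4 was lower (-2.08). With no run block edgeR called 11 of the 20 higher and 0 lower in that comparison, against 4.89% and 2.92% of all genes. Itga4 was then not called by edgeR (adjusted p = 0.230). In the ETP-like comparison Ahnak was higher by 2.68. The median log2 difference of this list was 0.40, 3.01 and 0.30 in the 3 comparisons, against 0.00, -0.05 and -0.07 over all genes.

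Over 30 profiles, each of a gate in a run and including the set-aside cells and the cells of no gate, the pattern of each gene was compared with that of 8426 genes by Pearson's r of log2(CPM + 1), centred within each run. Profiles of 1 library share its depth and sort, so the values are descriptions. The most alike gene outside the list was Fam129a for S100a4 (r = 0.95), Cd52 for S100a6 (0.96), Tmem50a for S100a10 (0.96) and Prr13 for S100a11 (0.95). It was Tnfaip8l2 for Vim (0.96), Bcl2a1d for Lgals3 (0.93), Casp6 for Lgals9 (0.94) and Tmem121 for Crip1 (0.95). Anxa2 and Lgals1 had less close partners, Prkcb (0.86) and Ubl5 (0.87). Within the list S100a4 and S100a6 were alike (0.96), as were S100a10 and Vim (0.94) and Lgals9 and Crip1 (0.96), while Lgals3 ran against Lgals9 (-0.74) and Crip1 (-0.70), and Anxa2 against S100a10 gave -0.08. Fam129a was 65.0 and 106 CPM in the Il17re gate and 1.64 and 4.72 CPM in DN3-like cells of the second and the third runs.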

How the data were processed

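The members and the gene lists were chosen with earlier results of these data known. The authors sequenced 10x Genomics 3′ libraries made with V2 or V3.1 kits, aligned the reads to mm10 and deposited raw UMI counts for each gene of each cell from Cell Ranger. Version 4.0.0 made the third run per the file headers, and which version made the others is not given in the sources used here. Submitters' processing notes name R 3.6.3 and Seurat 2.3, whose output was not used. The libraries held 39947415, 52797915 and 98533329 UMIs in 5527, 8887 and 8869 barcodes. The limits on genes and mitochondrial counts removed 11, 35 and 1358 cells.

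Gates were assigned in order, first cells with at least 2 markers of B, myeloid, plasmacytoid dendritic or stromal cells or 3 of erythroid cells (303, 562 and 1564 cells, set aside), then Il17re, Trdc Il2rb, Trdc, Trac Il2rb, ETP-like, DN2-like, DN3-like, DN4-like and Trac. Epcam and Pecam1, counted as stromal or epithelial markers, were also present in the DN gates. In the third run Epcam was 94.3 CPM in DN3-like cells and Pecam1 103 CPM in DN2-like cells. The cells set aside held 470, 645 and 426 CPM of Cd3e, so as a whole they were not shown to be other cell types. They also held markers by which they were set aside, such as Cd79a at 430 CPM in the third run and Hbb-bs at 495 CPM in the second. Cells that met no gate numbered 2510, 2521 and 1875. No doublets were removed in the main results. Scrublet (scanpy 1.11.5) called 0, 431 and 221 cells, its calls were not used, and an alternative removed the highest 8% of scores. CPM were computed from summed counts, and intervals cover counting error only. Tests used edgeR 4.0.16 (TMM, filterByExpr, run as block, gates with at least 20 cells) and, as an alternative, DESeq2 1.42.0. The 37 gate genes were not tested. The scripts were tested on simulated data.

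The named genes were the 10 members, members of the 2 lists called with an absolute log2 difference over 2, and for each member the most alike other gene among those with at least 20 CPM in a profile. Coordinates are from GENCODE on GRCm38. Of RefSeq's promoter table (GRCm38.p6), 8 members had an entry.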

Additional observations from a re-analysis of the deposited data

Results flagged for a closer look

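For 2 genes the difference between the same gates had opposite directions in different runs, with exact 95% counting intervals that left out 0. The differences between runs were not tested, and the runs differ in sort. Lgals1 was higher in Il17re-positive than in Trdc cells in the first run (log2 difference 0.15) and the third (0.93) and lower in the second (-0.16). In Trac Il2rb against DN3-like cells, Lgals1 was higher in the third run (0.50) and lower in the second (-0.34). Vim was higher in Il17re-positive than in Trdc cells in the second (0.67) and the third runs (0.63) and lower in the first (-0.61), where 61 of 73 Il17re cells held Ptcra, Rag1 or Il2ra.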

How the results depend on the processing

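In the Il17re comparison the number of genes called moved from 408 to 202 with DESeq2, 1239 with no filter on low counts, 0 with no run block (292 at an unadjusted p under 0.05 by edgeR), 2074 with higher gate thresholds and 1862 with the Il17re gate without Ptcra, Rag1 and Il2ra, and the members called moved from 4 to 1 with DESeq2, 0 with no run block, 10 with higher thresholds and 9 without those transcripts. The higher thresholds and the narrower Il17re gate each left 2 of the 3 runs, the second and the third, so their values also lack the first run. Leaving out 1 run each gave 16 (without the third run) to 1893 (without the first) genes and 0 to 10 members. In the Trac Il2rb comparison 5039 genes became 3232 with DESeq2 and 815 with no run block, where the members called moved from 8 to 6, without Crip1 (adjusted p = 0.110 by edgeR) and Lgals9 (adjusted p = 0.213). In the ETP-like comparison 1120 became 350 with DESeq2 (55.4% of them higher, against 41.5%) and 0 with no run block (680 at an unadjusted p under 0.05), and members moved from 7 to 0 with no run block (6 at an unadjusted p under 0.05). Leaving out a run in these 2 comparisons leaves 1 library a gate and no test. No member called by edgeR reversed under the alternatives run. Beyond this, the cause of these changes was not tested. With 1 library per sort, depth, sort and any difference in kit or sequencer limit every comparison between runs. Of the levels by gate and run, 25 moved beyond their counting interval with a 5% mitochondrial limit, 84 with the highest doublet scores removed, 103 with higher gate thresholds and 43 with no upper gene limit, while 275, 216, 177 and 257 did not. With no gate for other cell types 33 moved and 237 did not. With the Il17re gate limited to cells without Ptcra, Rag1 and Il2ra, 19 levels of that gate moved and 1 did not. Shares of cells with a UMI moved in 230 cases at 1000 UMIs a cell and in 265 with all UMIs.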
